A study of Mus musculus with 6 samples.

Results

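The genes described here are the receptors and signal transducers of ITAM costimulation, the second signal that osteoclast precursors need beside RANKL. They were chosen by name, 9 of the 55291 gene rows in the tables: the receptors Trem1, Trem2, Treml4 and Oscar, the adaptors Tyrobp and Fcer1g, and the signalling enzymes Syk, Btk and Plcg2. All 9 were found. The values come from 6 RNA-seq libraries of RAW 264.7, a mouse macrophage-like line derived from ascites that forms osteoclasts in culture. Every culture was given 50 ng/mL of RANKL, the cytokine that drives osteoclast formation, over 4 days. One group, shCtrl (n = 3, genotype label WT) carried a control short hairpin RNA, and the other, shUSP8 (n = 3, genotype label USP8 Knock Down), carried a hairpin against Usp8, a deubiquitinating enzyme of endosomes that spares receptors from lysosomal degradation. The comparison asks how transcripts differ when Usp8 is reduced under osteoclast-forming conditions. The labels name no hairpin sequence and do not say whether libraries came from separate cultures, so the spread between them may be technical.

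ITAM costimulation works through a short cytoplasmic motif, the immunoreceptor tyrosine-based activation motif, carried by the adaptors DAP12 (gene Tyrobp) and the Fc receptor gamma chain (gene Fcer1g). The receptors have short tails and pair with an adaptor in the membrane: TREM receptors with DAP12, and OSCAR with the gamma chain. Src-family kinases phosphorylate the motif, SYK docks on it, and TEC-family kinases such as BTK then help to activate the phospholipase PLCG2, whose product releases calcium and switches on calcineurin and the osteoclast transcription factor NFATc1. Mice without both adaptors have dense bones because osteoclasts fail to form, and loss of human TYROBP or TREM2 causes a disease of bone cysts and dementia.

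Libraries held between 19973500 and 20213900 expected counts, the fragments that the quantifier assigned to genes. Usp8 was at 42.3, 37.8 and 38.4 TPM in the control libraries against 10.00, 10.7 and 11.5 TPM in the knockdown libraries (TPM is a level per transcript length, scaled to the same total in each library), 72.8% lower by the means (edgeR adjusted p = 1.47e-10). The mean fragment length, estimated from expected count over TPM, was 368 nt in shUSP8_2 and between 292 and 309 nt in the other 5 libraries. It enters the effective length of short transcripts such as Tyrobp, and the results of Tyrobp and Fcer1g are given with and without shUSP8_2. Markers of macrophages and of osteoclasts were present. The 8 macrophage markers summed to 4598 to 4916 TPM in shCtrl and 6401 to 6938 TPM in shUSP8. The 10 osteoclast markers, Oscar among them, summed to 9986 to 10861 TPM in shCtrl and 9453 to 9795 TPM in shUSP8. Of the macrophage markers 4 were called higher and 3 lower, and of the osteoclast markers 5 were called lower and none higher, beside 17.8% of all tested genes higher and 14.9% lower; the part of these marker changes in the results below was not tested. Bulk RNA cannot tell fewer cells of a type from less RNA per cell.

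Markers of other cells that use the same signalling genes were low. The B cell markers Cd79b, Ms4a1, Pax5 and Ebf1 were at 0 TPM in every library, and Cr2, Cd79a and Fcer2a reached at most 0.16, 0.05 and 0.09 TPM. Summed mast cell and basophil markers (8 genes, with Fcer1a, Ms4a2, Kit, Cpa3, Mcpt4, Mcpt8 and Tpsb2 at 0) reached at most 0.03 TPM in either group. The 10 neutrophil markers (Ly6g, Elane, Camp, Ltf and Ngp at 0) summed to 1.72 to 2.60 TPM in shCtrl and 4.96 to 5.53 TPM in shUSP8, and the 11 NK and T cell markers (Ncr1, Klrb1c, Klrk1, Gzma, Cd3d, Cd3e, Cd3g and Cd8a at 0) to 3.15 to 3.46 TPM and 0.77 to 3.97 TPM. Dendritic cell markers (9 genes, Siglech and Cd209a at 0) summed to 15.53 to 15.98 TPM and 39.0 to 45.4 TPM, most of it Itgax, the CD11c integrin that macrophages also carry. Platelet markers (7 genes, Gp6 and Gp9 at 0) summed to 4.64 to 5.85 TPM and 9.24 to 12.2 TPM, and stromal markers (9 genes, Bglap and Alpl at 0) to 2.84 to 4.08 TPM and 2.95 to 4.70 TPM.

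Among the 9 genes, 2 TREM receptor genes rose, Trem2 and Treml4. Their start regions are shown because both belong to the TREM cluster on chromosome 17 and moved in the same direction by very different amounts. RefSeq (GRCm38.p6) start regions, 250 bases before to 50 after the start, were found for 8 of the 9 genes; Tyrobp had no entry. In capitals are matches to the PU.1 core GAGGAA (a factor of myeloid cells) or the AP-1 motif TGANTCA (the FOS and JUN factors that RANKL induces), searched on both strands together with the core of the interferon response element ISRE. Both sequences are on the plus strand, Trem2 at chr17:48346151-48346450 and Treml4 at chr17:48264045-48264344.
Trem2: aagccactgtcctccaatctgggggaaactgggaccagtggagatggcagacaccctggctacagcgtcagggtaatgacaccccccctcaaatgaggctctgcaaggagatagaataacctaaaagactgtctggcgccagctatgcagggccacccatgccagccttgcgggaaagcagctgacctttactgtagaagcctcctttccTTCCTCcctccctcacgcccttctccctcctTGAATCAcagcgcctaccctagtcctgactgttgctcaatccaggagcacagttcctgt
Treml4: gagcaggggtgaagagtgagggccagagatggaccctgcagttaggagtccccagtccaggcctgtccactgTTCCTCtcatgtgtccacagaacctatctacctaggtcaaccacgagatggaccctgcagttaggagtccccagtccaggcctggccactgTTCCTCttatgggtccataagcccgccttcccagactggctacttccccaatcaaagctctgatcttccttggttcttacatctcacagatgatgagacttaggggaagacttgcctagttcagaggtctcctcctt

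The Trem2 region held 1 match to the AP-1 pattern, beginning 9 bases before the start, and 1 PU.1 core on the minus strand beginning at base -40. The AP-1 match has A at its centre, where the pattern accepts any base, so it is a loose match. The Treml4 region held no AP-1 match and 2 PU.1 cores on the minus strand, beginning at bases -178 and -87. Each of the 2 lies just past a copy of a 40-base stretch that occurs at bases -225 and -134, a direct repeat spaced by 91 bases. An exact repeat of 40 or more bases was found in 185 of 32817 RefSeq start regions (0.564%), and the longest in the Trem2 region had 8 bases. The windows of Trem1 and Btk and 1 of the 2 of Syk held 1 PU.1 core each and that of Oscar 2, while none of the motifs was found in the windows of Plcg2 and Fcer1g. The ISRE core was in none of the 8 genes' windows. Over all start regions, 28.3% held the PU.1 core, 7.81% the AP-1 motif and 3.43% the ISRE core, and no 2 matches overlapped in the regions shown.

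Trem2 and Treml4 were higher in shUSP8, as was the phospholipase gene Plcg2, whereas the adaptors and Oscar did not pass the test and Syk was slightly lower. With edgeR (adjusted p under 0.05 over 12440 tested genes), 3 of the 8 tested genes rose and 1 fell, against 17.8% of all tested genes higher and 14.9% lower. In either direction the count was 4 of 8, against 32.8% of all tested genes. Treml4, 1 of the 3 that rose, entered the test through its shUSP8 counts. The counts of rises here and on the other scales are therefore description and support nothing about these genes as a set. With effective-length offsets, 3 rose and 2 fell, against 12.1% and 9.87% of all tested genes (21.9% either way). On log2(TPM + 1), 3 rose and none fell, against 19.1% and 4.02% (23.1% either way). The share of called genes that rose was 54.4% with TMM scaling, 72.6% with library totals and 82.6% on log2(TPM + 1), where all tested genes had a median 0.11 above 0. The median log2 fold change of the 8 genes was 0.00, as was that of all tested genes. On TPM, 4 of the 8 were higher in every shUSP8 library than in any shCtrl library, against 33.8% of all tested genes, and none was lower in every library, against 9.12% (42.9% either way).

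**Figure D1:**
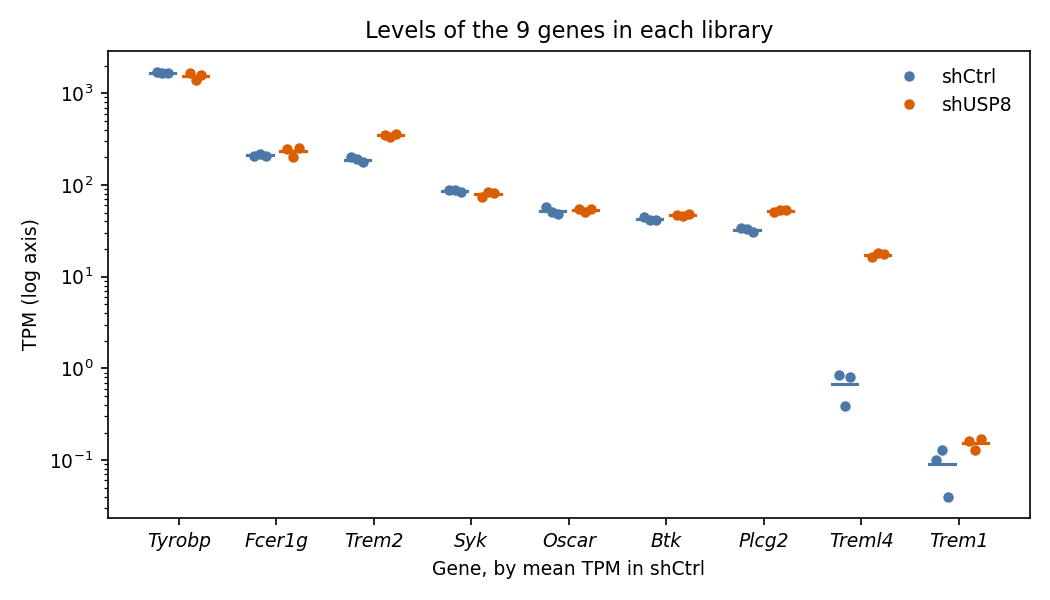
Level in TPM (log axis) of the 9 genes in each library; points are libraries (n = 3 per group) and bars are group means. Trem2, Treml4, Plcg2 and Btk do not overlap between groups, and Trem1 reaches at most 0.17 TPM.

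In control cells the levels of the receptors, adaptors and enzymes lay far apart. Tyrobp was highest at 1672 ± 31.3 TPM (SD, n = 3), above 99.2% of tested genes by its mean over all libraries. Fcer1g followed at 211 ± 5.55 TPM, Trem2 at 189 ± 11.6 TPM, Syk at 86.2 ± 2.79 TPM, Oscar at 51.9 ± 5.27 TPM, Btk at 42.7 ± 1.84 TPM and Plcg2 at 32.7 ± 1.68 TPM. Treml4 was at 0.68 ± 0.252 TPM and Trem1 at 0.09 ± 0.0458 TPM. No pair of neighbours in this order overlapped between libraries. In shUSP8 the order changed in 2 places: Trem2 (351 ± 14.1 TPM) lay above Fcer1g (234 ± 28.5 TPM) in all 3 libraries, and Plcg2 (52.5 ± 1.69 TPM) lay above Btk (47.1 ± 1.32 TPM) in all 3. Plcg2 and Oscar (53.6 ± 2.46 TPM) overlapped there.

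Among the receptors, Trem2, which binds lipids and lipoproteins and sustains myeloid survival, was counted 2663, 2620 and 2509 times in the control libraries and 4746, 4231 and 4502 times in the knockdown libraries. Every shUSP8 library was above every shCtrl library. The log2 fold change was 0.72 (SE 0.06, edgeR adjusted p = 9.47e-07), and the call held with each library left out. Trem2 spans 48346401 to 48354147 of chromosome 17 (GRCm38, plus strand).

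Treml4, a TREM-like receptor of macrophages and dendritic cells that binds dying cells and aids TLR7 signals, showed the largest change of the 8. It was counted 21, 10 and 18 times in the control libraries and 353, 357 and 347 times in the knockdown libraries. The shUSP8 libraries were close together, and the shCtrl libraries were near the lower limit of the test. The level went from 0.833 ± 0.291 to 17.1 ± 0.164 CPM, counts scaled to the library's effective size (SD, n = 3 per group). On the log2 scale the fitted change was 4.35 (SE 0.16, edgeR adjusted p = 1.24e-09). Of the shCtrl libraries 2 of 3 cleared the count minimum, so Treml4 entered the test through its shUSP8 counts. Treml4 (chromosome 17, 48264295 to 48275360) starts 82.1 kb before Trem2.

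Trem1, which amplifies inflammatory signals in neutrophils and monocytes, was barely detected. It was counted 4, 6 and 2 times in the control libraries and 6, 5 and 5 times in the knockdown libraries, and it was not tested because no library cleared the count minimum. A difference between groups was not detectable at this depth.

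Oscar, the collagen receptor of osteoclasts, gave 57.9, 50.1 and 47.8 TPM in shCtrl and 55.0, 50.8 and 55.1 TPM in shUSP8. The groups overlapped. Its log2 fold change was -0.09 (SE 0.06, edgeR adjusted p = 0.326). Its 95% normal interval, which is narrower than one matched to the test, ran from -0.21 to 0.04. Oscar lies on chromosome 7 from 3609813 to 3616157 (minus strand).

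Of the adaptors, Tyrobp gave 1708, 1650 and 1659 TPM in shCtrl and 1654, 1413 and 1588 TPM in shUSP8. The groups overlapped on this scale, with shUSP8_2 lowest. Expected counts were 8499, 8581 and 8879 against 8628, 5798 and 7625. On CPM every shUSP8 library was below every shCtrl library, at 421, 280 and 372 against 430, 434 and 459. The share of all tested genes that were lower in this way on CPM was not taken. The log2 fold change was -0.30 (SE 0.15, edgeR adjusted p = 0.194), it was -0.15 (adjusted p = 0.0768) without shUSP8_2 and -0.44 (0.0404) without shUSP8_1. Offsets that correct each gene for its effective length in each library gave -0.24 (adjusted p = 0.0417). The longest listed transcript of Tyrobp has 597 nt, and expected count per TPM was 4.10 in shUSP8_2 against 4.80 to 5.35 in the other libraries. Tyrobp lies on chromosome 7 from 30413760 to 30417585 (plus strand).

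Fcer1g, the gamma chain gene, gave 209, 217 and 206 TPM in shCtrl and 247, 202 and 254 TPM in shUSP8. shUSP8_2 was lowest of all libraries and shUSP8_1 and shUSP8_3 were the highest, so the groups overlapped. The log2 fold change was -0.02 (SE 0.15, edgeR adjusted p = 0.922), with a 95% normal interval from -0.33 to 0.28. Without shUSP8_2 it was 0.13 (adjusted p = 0.102). Fcer1g lies on chromosome 1 from 171229572 to 171234365 (minus strand).

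**Figure D2:**
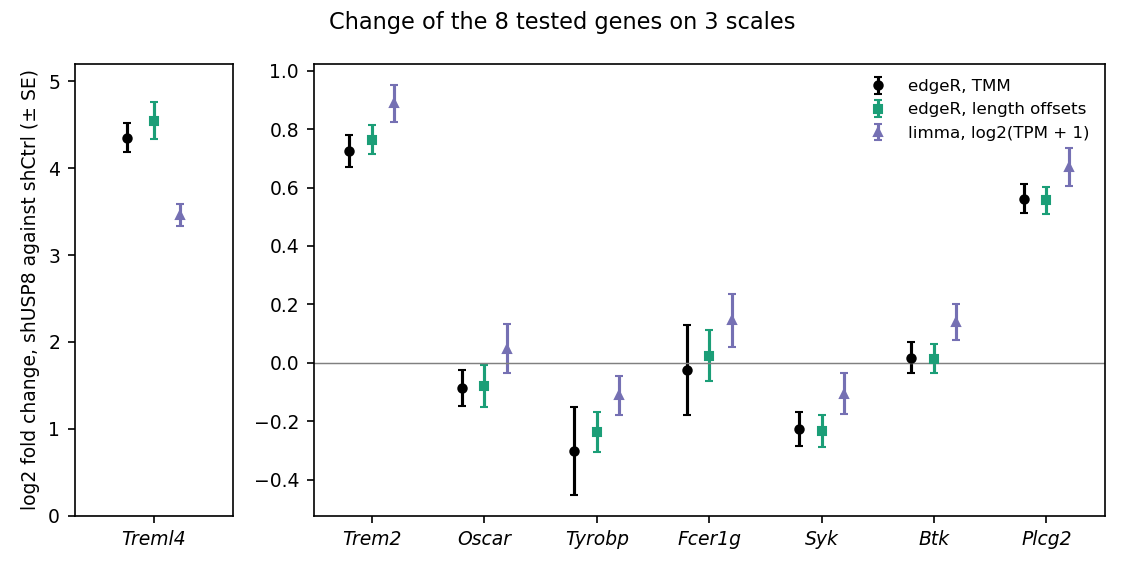
Log2 fold change of shUSP8 against shCtrl, with SE, for the 8 tested genes on 3 scales: edgeR with TMM factors, edgeR with effective-length offsets, and limma on log2(TPM + 1). Treml4 has an axis of its own; Trem2 and Plcg2 are above 0 on each scale, and the log2(TPM + 1) values are read against a median of 0.11 over all tested genes, not against the line at 0.

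Of the signalling enzymes, Plcg2 gave 34.1, 33.0 and 30.8 TPM in shCtrl and 50.6, 53.3 and 53.7 TPM in shUSP8. The groups were well apart. Its log2 fold change was 0.56 (SE 0.05, edgeR adjusted p = 3.22e-06), and the call held with each library left out. Plcg2 has a single listed transcript of 4298 nt (chromosome 8, 117498291 to 117635142, plus strand).

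Syk, the kinase that docks on the phosphorylated motif, gave 87.5, 88.2 and 83.0 TPM in shCtrl and 73.7, 84.3 and 82.6 TPM in shUSP8. By TPM the groups overlapped in shCtrl_3 and shUSP8_2, and shUSP8_1 was lowest. On CPM every shUSP8 library was below every shCtrl library, at 292, 338 and 309 against 362, 373 and 364. The share of all tested genes that were lower in this way on CPM was not taken. On counts it fell by 0.23 on the log2 scale (SE 0.06, edgeR adjusted p = 0.0107). The call was lost without shCtrl_2 (adjusted p = 0.0563) or shUSP8_3 (0.0543), with library totals (-0.15, 0.0763) and on log2(TPM + 1) (-0.11, limma adjusted p = 0.306), a scale whose median over all tested genes was 0.11. Syk lies on chromosome 13 from 52583173 to 52648792 (plus strand).

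Btk, the TEC-family kinase upstream of PLCG2, gave 44.7, 42.0 and 41.2 TPM in shCtrl and 46.5, 46.1 and 48.6 TPM in shUSP8. Every shUSP8 library was above every shCtrl library by TPM, as for 33.8% of all tested genes, but on CPM the groups overlapped. The test did not call it on counts (log2 fold change 0.02, SE 0.05, edgeR adjusted p = 0.827, 95% normal interval from -0.09 to 0.12). Nor was it called on log2(TPM + 1) (0.14, limma adjusted p = 0.141), a scale whose median over all tested genes was 0.11. Btk lies on the X chromosome from 134542336 to 134583570 (minus strand).

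Receptor transcripts were also set against their adaptor within each library, since TPM is per length. The sum of Trem1, Trem2 and Treml4 over Tyrobp was 0.118, 0.116 and 0.107 in shCtrl and 0.225, 0.251 and 0.240 in shUSP8. The ratio was 2.10 times as high in shUSP8, with no overlap (two-sided exact permutation p = 0.1, which is the lower limit for 3 against 3 libraries; 0.15 adjusted over 3 ratios). In shUSP8, Treml4 added 17.4 TPM to this sum and Trem2 351 TPM. Trem3, which was not among the genes chosen, was left out of the sum. Its mean was 1.64 TPM in shCtrl and 13.95 TPM in shUSP8. Tyrobp over Fcer1g was 8.17, 7.61 and 8.04 in shCtrl and 6.69, 7.01 and 6.25 in shUSP8, also with no overlap (log2 difference -0.26, exact permutation p = 0.1, adjusted 0.15). Oscar over Fcer1g overlapped between the groups, at 0.247 ± 0.0263 and 0.230 ± 0.0188 (SD, n = 3 per group; exact permutation p = 0.5).

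**Figure D3:**
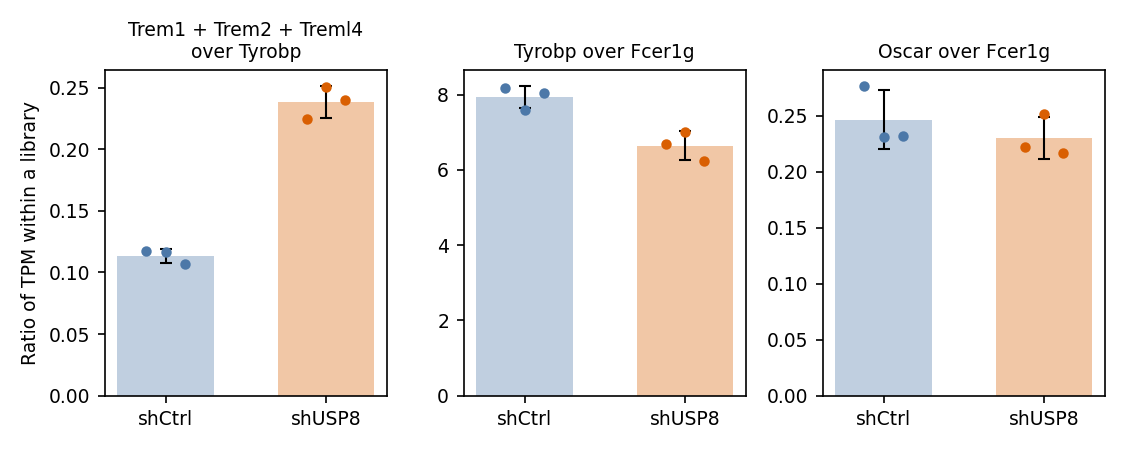
Ratios of TPM within each library, with points for libraries, bars for group means and error bars for SD (n = 3 per group). The sum of Trem1, Trem2 and Treml4 over Tyrobp lies between 0.107 and 0.118 in shCtrl and between 0.225 and 0.251 in shUSP8, whereas Oscar over Fcer1g overlaps.

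Other genes of the TREM cluster were also called. Within 200 kb of Trem2, 15 genes are annotated in GENCODE M21 and 8 of them were tested. Of these 6 rose, Trem2 and Treml4 among them, 2 did not pass the test and none fell, in a comparison where 17.8% of all tested genes rose. For 3 of the 6 (Treml4 and 2 genes with clone names) the shUSP8 counts let the gene into the test, so the count supports nothing about the cluster. Trem3, a DAP12-coupled receptor starting 98.6 kb before Trem2, was counted 22, 16 and 22 times in the control libraries and 179, 152 and 149 times in the knockdown libraries, far apart between groups (log2 fold change 2.93, SE 0.17, edgeR adjusted p = 7.25e-08). Treml1, 13.5 kb after Trem2 and best known from platelets, was counted 20, 16 and 16 times against 34, 30 and 42 (0.96, SE 0.25, edgeR adjusted p = 0.011). Its call was lost without shCtrl_2 (0.0511) or shUSP8_3 (0.0573), with DESeq2 (0.0595) and with length offsets (0.0549). Beside it, the platelet markers moved the same way in sum, through Pf4, a chemokine gene that macrophages also express; their part in the Treml1 result was not tested.

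The other 2 genes that rose have clone names and are named here after their values were seen. B430306N03Rik lies between Treml2 and Trem2 and was counted 7, 3 and 4 times in the control libraries and 229, 223 and 207 times in the knockdown libraries. A530064D06Rik was not counted in any control library and was counted 79, 79 and 52 times in the knockdown libraries. Both entered the test through their shUSP8 counts. Beyond the cluster, Nfya, a subunit of the CCAAT-binding factor, was at -0.07 (edgeR adjusted p = 0.351) and its neighbour Oard1, a hydrolase of ADP-ribose, at -0.20 (adjusted p = 0.111).

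**Figure D4:**
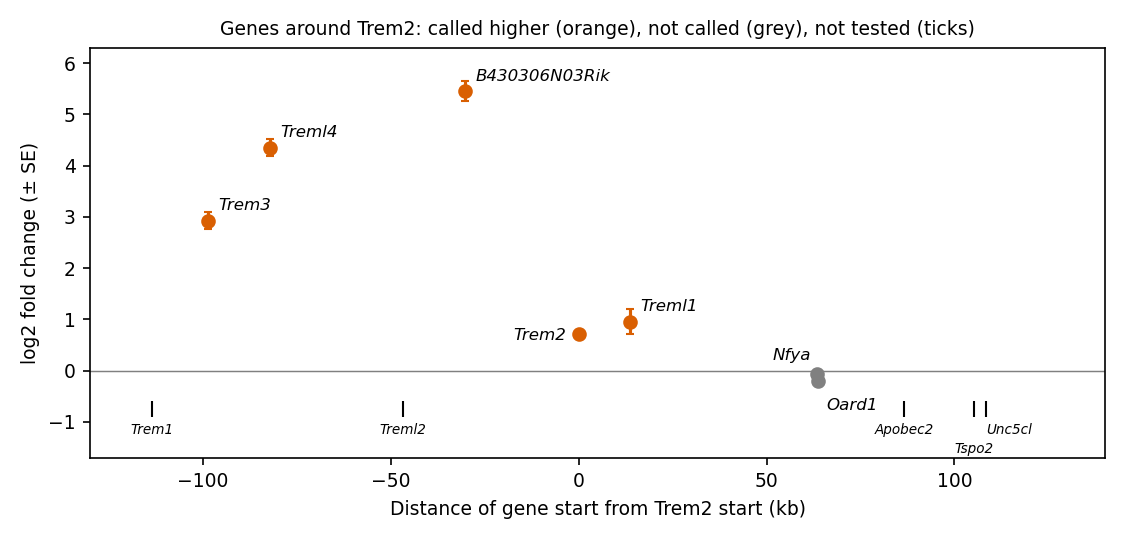
Log2 fold change (with SE, edgeR) of tested genes by the distance of their start from that of Trem2 in kb; ticks mark genes that were not tested. Trem3, Treml4, B430306N03Rik, Trem2 and Treml1 lie above 0, and Nfya and Oard1 lie near it; A530064D06Rik, at 0 in shCtrl, is not drawn.

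Genes on a broader list, drawn up for ITAM-coupled receptors, mostly rose where tested. Not all of them pair with DAP12 or the gamma chain or signal through an ITAM. Treml1 was listed by its family, and Hcst is itself an adaptor gene. Of 36 listed, 31 were in the tables and 22 were tested, of which 14 rose, 4 fell and 4 did not pass. The median log2 fold change was 0.82, against 0.00 over all tested genes, of which 17.8% rose and 14.9% fell. Of the 22, 4 were tested only through their shUSP8 counts: Sirpb1b, Sirpb1c and Fcgr1, which rose, and Cd300e, which did not pass. The count of rises therefore supports nothing about the list. The summed level of the 31 genes was 368 to 377 TPM in shCtrl and 657 to 679 TPM in shUSP8. Most of this difference lay in Clec4d, Clec4n and Clec4e, so it is not a trait of the whole list. The smallest p-values included 3 C-type lectin receptors that rose: Clec4n, the fungal receptor dectin-2, from 3.75 ± 0.36 to 78.03 ± 2.47 TPM, Clec4d from 25.0 ± 2.31 to 148 ± 7.84 TPM, and Clec4e, the mycobacterial glycolipid receptor Mincle, from 7.57 ± 1.11 to 43.7 ± 0.687 TPM. Clec7a, the beta-glucan receptor dectin-1, named after its values were seen, was at 0.18 (edgeR adjusted p = 0.358). Fcgr3, a receptor for IgG, rose from 5.63 ± 0.615 to 24.6 ± 1.52 TPM. Siglec15, the DAP12-coupled sialic acid receptor of osteoclasts, named after its values were seen, fell from 80.3 ± 3.83 to 60.0 ± 12.4 TPM (log2 fold change -0.57, SE 0.12, edgeR adjusted p = 0.00755; limma adjusted p = 0.0632 on log2(TPM + 1)). Hcst, the DAP10 adaptor gene, was at -0.22 (SE 0.25, edgeR adjusted p = 0.53), and at -0.10 with length offsets (edgeR adjusted p = 0.751). Members of the Sirpb1, Pir and Lilr families are near copies of each other, so their counts are uncertain.

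Genes listed as inhibitory receptors and the phosphatases they recruit moved both ways. They were listed by name, and whether each listed receptor, Cd33 among them, inhibits in mouse cells was not tested. Of 29 tested, 7 rose, 12 fell and 10 did not pass (median 0.07), beside 17.8% and 14.9% of all tested genes. Fcgr2b, the inhibitory IgG receptor, rose from 4.65 ± 0.07 to 21.2 ± 0.975 TPM, Cd33, a sialic acid receptor, from 3.32 ± 0.318 to 15.7 ± 0.829 TPM, and Cd300lf, a lipid receptor, from 1.96 ± 0.365 to 10.6 ± 0.702 TPM. Cd72, a lectin-like inhibitory receptor best known from B cells, fell from 548 ± 37.1 to 272 ± 28.6 TPM, while the B cell markers named above were at or near 0. On log2(TPM + 1), 8 members rose and 6 fell, beside 19.1% and 4.02% of all tested genes.

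Src-family kinases and their regulators had 8 of 13 members higher, 2 lower and 3 that did not pass (median 0.31), where 17.8% of all tested genes rose and 14.9% fell. Fgr, a myeloid Src-family kinase, rose from 6.29 ± 0.354 to 15.8 ± 1.03 TPM, Ptpre, a receptor-type phosphatase that activates Src, from 11.8 ± 0.902 to 22.9 ± 2.21 TPM, and Unc119, which binds the lipid anchor of Src kinases, from 36.4 ± 2.41 to 52.8 ± 1.58 TPM. Pag1, an adaptor that recruits the inhibitory kinase CSK, rose by 0.69 on the log2 scale (SE 0.11). Src itself, named after its values were seen, fell by 0.28 (SE 0.05, edgeR adjusted p = 7.85e-04); on log2(TPM + 1) it was at -0.13 (limma adjusted p = 0.142).

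Of 31 adaptors and effectors acting beside SYK, BTK and PLCG2, 13 rose, 9 fell and 9 did not pass (median 0.11), again beside 17.8% and 14.9% of all tested genes. Fyb, an adaptor that links receptors to integrins, rose from 42.5 ± 5.72 to 99.2 ± 10.3 TPM and Pik3cg, a PI3-kinase catalytic subunit, from 6.54 ± 0.08 to 11.99 ± 1.07 TPM. Rasgrp4, a Ras activator, fell from 2.71 ± 0.433 to 1.32 ± 0.242 TPM and Gab2, a docking adaptor of RANK signalling, from 35.2 ± 1.52 to 27.7 ± 1.39 TPM. With length offsets 8 members of this list rose, beside 12.1% of all tested genes. Without shUSP8_3 also 8 rose, beside 1717 of 12627 tested genes.

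In the calcium and calcineurin arm, 13 of 36 tested members rose, 5 fell and 18 did not pass (median 0.11). Over all tested genes 17.8% rose and 14.9% fell, so the number that fell is near the background. Trpv4, a calcium channel used by osteoclasts, rose from 1.38 ± 0.0862 to 4.85 ± 0.229 TPM and Itpr2, the receptor through which IP3 releases calcium, from 12.95 ± 1.70 to 23.0 ± 3.20 TPM. The calcineurin regulators split: Rcan1, an NFAT target, fell from 82.5 ± 3.53 to 60.5 ± 0.681 TPM and Rcan2 rose from 1.54 ± 0.338 to 5.46 ± 0.538 TPM. Nfatc1 itself was at 0.01 (SE 0.08, edgeR adjusted p = 0.913). With library totals 19 members rose and 2 fell, beside 3111 and 1172 of all 12440 tested genes. With length offsets 8 rose and 2 fell, beside 12.1% and 9.87% of all tested genes. Without shCtrl_2, 2 fell, beside 1239 of 12625 tested genes. There were 3 falls without shCtrl_1 (1402 of 12646 tested genes), shCtrl_3 (1293 of 12607) or shUSP8_3 (1322 of 12627).

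Ligands, partners and sheddases of the TREM receptors and OSCAR had 10 of 25 tested members higher, 6 lower and 9 that did not pass (median 0.00), while 17.8% of all tested genes rose and 14.9% fell; Csf1 was tested only through its shUSP8 counts and Col1a1 only through its shCtrl counts. Plxna1, the semaphorin receptor that associates with TREM2 and DAP12, rose from 16.7 ± 1.75 to 56.4 ± 5.95 TPM. Adam17, a protease that sheds TREM2 from the surface, rose from 21.5 ± 0.766 to 34.6 ± 3.22 TPM, and Psen2, a subunit of the gamma-secretase that clears the remaining stub, from 15.7 ± 0.636 to 26.3 ± 3.13 TPM. Clu, a lipoprotein that TREM2 binds, rose from 12.02 ± 0.838 to 20.3 ± 0.833 TPM. On log2(TPM + 1), 7 members rose and none fell (19.1% and 4.02% of all tested genes), and with length offsets 5 rose and 4 fell (12.1% and 9.87%). Without shCtrl_2, 6 rose and 3 fell, beside 1675 and 1239 of 12625 tested genes. Without shUSP8_3, 3 fell, beside 1322 of 12627.

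**Figure D5:**
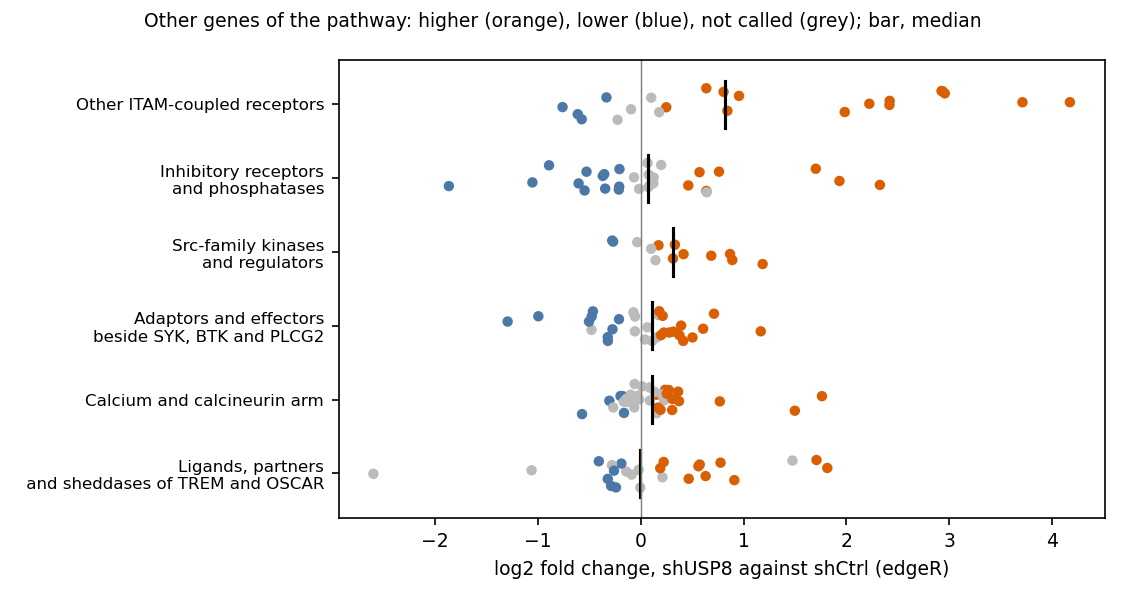
Log2 fold change (edgeR) of each tested gene in the 6 pathway lists, with a bar at the median. The ITAM receptor list lies mostly above 0 with a median of 0.82, whereas the medians of the other lists lie between 0.00 and 0.31.

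The genes whose profile over the 6 libraries lay nearest to each member were found among 8658 expressed genes by the root mean square difference of centred log2 CPM. For Trem2 they were Igsf8, an immunoglobulin-family membrane protein (0.03), and Taldo1, transaldolase (0.04). For Treml4 they were Mmp12, macrophage elastase (0.26), and Clec4n (0.33); genes under 3 log2 CPM on average, as Treml4 itself was, were not searched. For Plcg2 they were Tfec, a transcription factor of macrophages (0.03), and Itga5, an integrin subunit (0.03). For Tyrobp they were Micos13, of the mitochondrial cristae complex (0.02), and Ubl5, a ubiquitin-like protein of splicing (0.03), neither of which passed the test (edgeR adjusted p = 0.141 and 0.215). For Fcer1g they were Pqbp1 (0.04) and Sec61b, a subunit of the protein translocon (0.06), and for Oscar Atpaf2, an assembly factor of ATP synthase (0.02), and Pbdc1 (0.02). For Syk they were Abca2, a lipid transporter (0.02), and Gpatch2l (0.02), and for Btk the lysosomal enzymes Ctbs (0.01) and Man2b1 (0.01).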

How the data were processed

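The values came from 2 tables of 6 libraries. The expected counts, as deposited by the authors, are RSEM estimates of fragments per gene, and the TPM values, as deposited, are the same estimates per effective length, scaled to one total per library. Per the submitters' processing notes, the tools and build were RSEM, DESeq2 1.28.1 and mm10, with no role given; the aligner is not given in the sources used here. The table columns headed WT belong to shCtrl, and those headed KO were taken as shUSP8, because the samples have only 1 genotype label beside WT. Replicate numbers were taken from the column names. The Usp8 counts served as a check of the groups, so the lower Usp8 level is not independent of this assignment.

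Expected counts were rounded and fitted over all genes in edgeR 4.0.16 (R 4.3.3, limma 3.58.1, DESeq2 1.42.0) with TMM factors, filterByExpr (minimum count 10) and a robust quasi-likelihood F test with Benjamini-Hochberg adjustment, called under 0.05. SE is the absolute log2 fold change over the square root of F. The fit was tested on simulated data. TPM was tested with limma on log2(TPM + 1), and offsets used genes with at least 0.1 TPM in every library. Positions are from GENCODE M21 (GRCm38).

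The members and lists were chosen with earlier results of these data known. The named genes were Usp8, all members, up to 4 called genes of each list by smallest p, the 2 nearest profiles per member, and tested genes within 200 kb of Trem2, clone names passed over; others were named after their values were seen. Alternatives were other scalings, no count filter, DESeq2, limma-voom, unrounded counts, both pseudocounts, offsets, a replicate block and leaving out each library. The summed B cell marker list is not reported here.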

Additional observations from a re-analysis of the deposited data

How the results depend on the processing

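The 3 rises (Trem2, Treml4 and Plcg2) held under each of the 23 alternatives run, from normalisation, filter and tool to each library left out. The number of members called lower was 1 and changed: it was 0 on log2(TPM + 1), on log2(TPM + 0.1) and with library totals, and 2 with effective-length offsets, where Tyrobp joined Syk. With a library left out it ranged from 0 (without shCtrl_2 or shUSP8_3) to 2 (without shUSP8_1), and with offsets and a library left out, chosen after seeing the data, also from 0 to 2. Syk kept its direction under each of the 23 alternatives and lost its call in 8, and Tyrobp was called in 3; fewer samples or another scale apply in those settings and the cause was not tested. The log2 difference of Trem1, Trem2 and Treml4 over Tyrobp was 1.07 on TPM and 1.03 to 1.11 with a library left out. On CPM, where the untested Trem1 was not in the sum, it was 1.14. Some numbers of falls in the lists moved by over 1.5 times on log2(TPM + 1). They went from 4 to 1 in the ITAM receptor list, 12 to 6 in the inhibitory receptors and 2 to 0 in the Src-family list. The calcium arm went from 5 to 1 and the ligand list from 6 to 0. Over the 23 alternatives, rises ranged from 11 to 14 in the ITAM receptor list, 6 to 9 in the inhibitory receptors and 4 to 9 in the Src-family list. They ranged from 5 to 16 in the adaptors and effectors, 5 to 19 in the calcium arm and 4 to 10 in the ligand list. Falls ranged from 1 to 4, 6 to 12, 0 to 2, 6 to 9, 1 to 5 and 0 to 9 in the same order. Over all genes, 2218 rose and 1859 fell; on log2(TPM + 1) 2379 rose and 500 fell, with offsets 1474 and 1206, with library totals 3111 and 1172, and with the replicate block 2021 and 1690. With TMM factors and a library left out, the fewest were 1675 and 1239, without shCtrl_2, and with offsets and a library left out 1054 rises without shCtrl_2 and 766 falls without shCtrl_3. Same-numbered libraries correlated at -0.12, 0.01 and -0.15 in their deviations from the group means, so the numbers were not taken as pairs; with the replicate block 3 members rose and 1 fell, as without it. A low count limits Trem1, and the shCtrl level of Treml4, to what the depth of these libraries can show.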
